A study of Mus musculus with 6 samples.

Results

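The 8 genes Foxa1, Foxa2, Foxa3, Onecut1, Onecut2, Cebpa, Cebpb and Prox1, transcription factors that set up and keep the hepatocyte fate, were followed in the liver of mice with a change of Rxra in hepatocytes. They were picked by name, as the rows of the deposited tables that carry these symbols, and are 8 of the 55487 genes in each table. The mutant group held 3 liver libraries of male mice with the genotype RXRa f/f Alb cre+/-, and the control group 3 of male mice with Alb cre +/-, all of the strain C57/Bl6J and all on a high-fat diet. By these labels the controls too carry Cre recombinase under the albumin promoter, a hepatocyte promoter, although their titles say WT. The design text speaks of an Rxra S65A mutant whereas the genotype label gives a floxed allele, and a level per gene does not tell these alleles apart. No source used here gives the ages or the length of the diet.

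Rxra encodes RXRα, the shared dimer partner of the nuclear receptors that govern lipid, bile acid and drug metabolism in the hepatocyte. The factors followed here act beside them. The FOXA proteins are forkhead factors that can bind closed chromatin and open liver enhancers, and Foxa1 and Foxa2 are jointly needed for the liver to form. The ONECUT proteins, of which Onecut1 encodes HNF6, join a cut domain to a homeodomain and guide the split between hepatocytes and bile duct cells. C/EBPα and C/EBPβ are basic leucine zipper factors that bind the same motif. The α form favours the metabolic state of the adult hepatocyte and the β form is known for the response to injury and inflammation. Prox1 is a homeodomain protein needed for the migration of embryonic hepatocytes and acts with HNF4α and related receptors, often as a corepressor.

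Library totals lay between 35847386 and 43162557 estimated counts. The libraries of the groups differed broadly: 1923 of 14286 tested genes passed an adjusted p of 0.05 in edgeR's quasi-likelihood test, or 13.5%, with 949 higher and 974 lower in the mutants. The major urinary protein genes took 12.8% to 16.9% of the counts in the mutants and 1.85% to 3.09% in the controls. Scaling by TMM sets the typical gene about equal between groups. At plain library totals the median log2 fold change of all tested genes was -0.40 in place of 0.00, and with the major urinary protein genes left out of the totals it was -0.21. On the TPM table, which has no such scaling, that median was -0.55 for log2(TPM + 0.1). A principal component analysis used only the genes most variable over the libraries. On the component that held 16% of their variance, mutant replicate 2 stood apart from the other mutants, at -29.9 against 7.37 and 24.1. The controls lay between -2.09 and 0.27 on it. Rxra, the targeted gene, had 700, 522 and 609 CPM in mutant replicates 1 to 3 and 501, 471 and 414 CPM in control replicates 1 to 3, a log2 difference of 0.40 ± 0.13 short of the threshold (edgeR adjusted p = 0.0724). Its sign depends on the scaling, with 0.0073 at library totals and -0.20 on log2(TPM + 0.1). CPM here means estimated counts per the TMM-scaled library size (CPM of edgeR), errors of log2 fold changes are standard errors, and other errors are SD with n = 3 libraries per group.

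The labelled tissue fits its markers: 8 of 9 listed hepatocyte markers were found under their symbols, none of them at 0, with a summed level of 53448 to 62782 TPM in the mutants and 75788 to 86388 TPM in the controls. Of the 8, 2 rose, Ahsg and Apoa1, and 0 fell after TMM scaling. Their median log2 fold change was 0.05. At library totals 0 rose and 3 fell, with a median of -0.35.

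All 8 factors were transcribed in every library and all 8 passed the filter on low counts. Ordered by mean TPM, which is per transcript length and so can be compared between genes, the mutants had Cebpa at 242 ± 23.6 TPM, Cebpb at 125 ± 18.9, Foxa3 at 34.5 ± 6.23, Foxa2 at 17.1 ± 1.05, Prox1 at 16.9 ± 5.5, Onecut1 at 11.5 ± 11.2, Foxa1 at 6.87 ± 0.66 and Onecut2 at 4.33 ± 0.16 TPM. The controls had Cebpa at 326 ± 9.98 TPM, Cebpb at 121 ± 36.9, Foxa3 at 28.4 ± 2.19, Prox1 at 26.8 ± 0.757, Foxa2 at 16.9 ± 1.53, Foxa1 at 8.47 ± 0.852, Onecut2 at 7.66 ± 0.40 and Onecut1 at 4.64 ± 2.24 TPM. The 3 most abundant factors were therefore the same in both groups and in the same order. In the mutants the ranges of Foxa2 and Prox1, of Prox1 and Onecut1, and of Onecut1 and Foxa1 overlapped, so these neighbours are not ordered beyond their spread. In the controls this was so for Foxa3 and Prox1 and for Foxa1 and Onecut2. Cebpa stood above 98.1% of the 22796 genes with any TPM in the mutants and above 98.2% in the controls, and Onecut2, near the other end, above 68.4% and 70.0%.

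**Figure D1:**
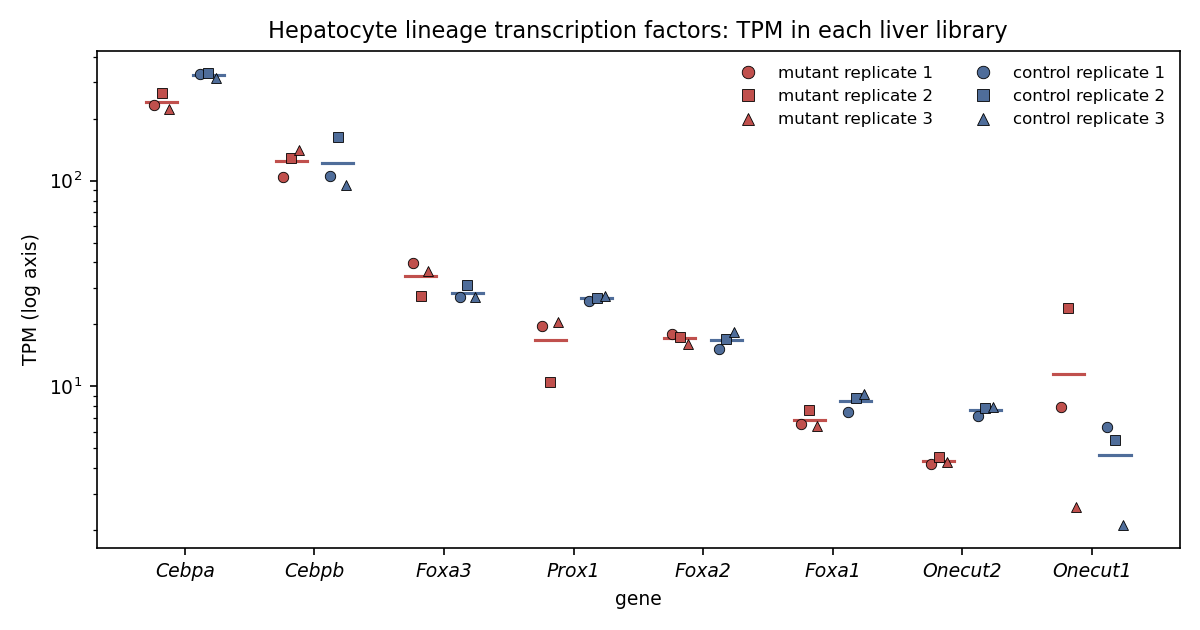
TPM of the 8 factors on a log axis, with each point 1 library (red, mutant; blue, control; marker shape, replicate) and each line a group mean. Onecut1 spreads from 2.58 to 24.0 TPM among the mutants. Onecut2, Cebpa and Prox1 are lower in all 3 mutants than in any control. On this unscaled measure so are 69.9% of the 11567 genes with at least 1 TPM in 3 libraries.

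The FOXA genes gave the changes that passed the test. After TMM scaling Foxa3 and Foxa2 rose in the mutant livers, by 1.83-fold and 1.54-fold, and Foxa1 had a smaller difference that did not pass. Thus 2 of the 8 factors were called higher and 0 lower, against a background of 6.64% of all tested genes called higher and 6.82% lower. An unadjusted p under 0.05 was reached by 4 of the 8 factors and by 4139 of the 14286 genes.

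Foxa3, whose product helps maintain glucose output in fasting, had the highest TPM of the FOXA genes in every library and lies on chromosome 7 (ENSMUSG00000040891.6, mm10 bases 19013284 to 19023538, minus strand). It had 68.2, 51.7 and 63.9 CPM in mutant replicates 1 to 3 and 32.1, 36.7 and 31.8 CPM in control replicates 1 to 3. All mutants were above all controls, as in 17.4% of all tested genes, and mutant replicate 2 was the lowest mutant. The means were 61.3 ± 8.53 CPM in the mutants and 33.5 ± 2.74 CPM in the controls, a log2 fold change of 0.87 ± 0.13 (edgeR adjusted p = 0.00493, 95% interval 0.58 to 1.17). At library totals the log2 fold change was 0.47 and still passed (edgeR adjusted p = 0.0276, where 2.05% of genes were called higher). In the TPM fit it was 0.27 and did not pass (limma adjusted p = 0.188), with 39.6, 27.6 and 36.3 TPM in mutant replicates 1 to 3 overlapping 27.1, 30.9 and 27.2 TPM in control replicates 1 to 3.

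Foxa2 encodes the FOXA factor tied to fasting metabolism and bile acid handling, on chromosome 2 (ENSMUSG00000037025.11, bases 148042877 to 148046969, minus strand). It had 28.1, 29.3 and 25.4 CPM in mutant replicates 1 to 3 and 16.4, 18.3 and 19.3 CPM in control replicates 1 to 3, again without overlap. The log2 fold change was 0.62 ± 0.12 (edgeR adjusted p = 0.0128). This call was lost without mutant replicate 1 (adjusted p = 0.0548), without control replicate 1 (0.0552) and at library totals (0.17, with a log2 fold change of 0.22). In TPM the groups were level, with 17.1 ± 1.05 in the mutants and 16.9 ± 1.53 in the controls, while the typical gene was lower in the mutants on that scale.

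Foxa1, whose product shares most of its DNA-binding sites with FOXA2, lies on chromosome 12 (ENSMUSG00000035451.7, bases 57540628 to 57546916, minus strand). It had 17.6, 22.2 and 17.5 CPM in mutant replicates 1 to 3 and 13.9, 16.1 and 16.6 CPM in control replicates 1 to 3. The groups did not overlap, as in 17.4% of all tested genes for the mutant-higher direction, yet at 0.30 ± 0.14 the log2 fold change missed the threshold (edgeR adjusted p = 0.206, 95% interval -0.03 to 0.62). Its sign depends on the scaling, with -0.10 at library totals and -0.30 in the TPM fit.

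The window before the start site of each FOXA gene is shown because 2 of the 3 paralogs carry the calls. Each is the 250 bases before the RefSeq start (GRCm38.p6), 5′ to 3′, and capitals mark a match to a searched motif.
Foxa3, chr7:19023540-19023789, minus strand: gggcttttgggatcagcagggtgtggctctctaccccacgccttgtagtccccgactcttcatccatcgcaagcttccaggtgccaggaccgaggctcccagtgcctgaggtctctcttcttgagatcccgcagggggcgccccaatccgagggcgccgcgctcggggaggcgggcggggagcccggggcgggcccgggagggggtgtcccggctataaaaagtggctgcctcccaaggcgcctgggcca
Foxa2, chr2:148046970-148047219, minus strand: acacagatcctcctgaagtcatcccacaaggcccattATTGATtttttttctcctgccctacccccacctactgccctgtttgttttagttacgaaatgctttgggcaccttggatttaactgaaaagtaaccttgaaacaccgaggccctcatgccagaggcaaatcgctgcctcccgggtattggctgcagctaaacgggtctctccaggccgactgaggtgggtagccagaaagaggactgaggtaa
Foxa1, chr12:57546112-57546361, minus strand: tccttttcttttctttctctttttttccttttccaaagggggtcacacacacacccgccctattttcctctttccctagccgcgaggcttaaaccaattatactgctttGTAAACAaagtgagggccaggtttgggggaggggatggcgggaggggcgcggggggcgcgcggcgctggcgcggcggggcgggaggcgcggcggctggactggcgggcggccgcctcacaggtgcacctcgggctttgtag
The motifs searched on both strands were TGTTTAC and TATTTAC for FOXA, ATCAAT for ONECUT, TTGCNNAA for C/EBP and AGGTCA for nuclear receptors. Foxa1 held TGTTTAC as its reverse complement, at 141 to 135 bases before the start, a motif that 3.17% of 32851 windows of the same length hold. Foxa2 held ATCAAT as its reverse complement, at 213 to 208 bases before the start, which 6.72% of windows hold. The 2 matches do not overlap any other searched motif. Foxa3 held none of the 5 motifs, and neither did the windows of Onecut1, Cebpa, Cebpb and Prox1, which were searched in the same way. No window of Onecut2 was searched. In the whole set TATTTAC stood in 2.73%, TTGCNNAA in 9.56% and AGGTCA in 14.02% of windows. Foxa2 has 3 RefSeq start sites, of which the one at the GENCODE start of the gene is shown, and the RefSeq start of Foxa1 lies 805 bases inside the GENCODE gene.

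The make-up of the FOXA group gives a comparison that no library scaling can move. Foxa3 held 61.7%, 52.6% and 61.9% of the summed FOXA TPM in mutant replicates 1 to 3 and 54.3%, 54.6% and 49.8% in control replicates 1 to 3. Foxa1 held 10.2%, 14.5% and 10.9% in mutant replicates 1 to 3 and 15.1%, 15.4% and 16.8% in control replicates 1 to 3, so all mutants were below all controls. Foxa2 held 29.4 ± 3.08% in the mutants and 31.4 ± 1.82% in the controls. With 3 libraries against 3 the smallest possible two-sided exact permutation p is 0.1, which the share of Foxa1 reached (exact p = 0.1, adjusted over 5 shares 0.375), while Foxa3 had an exact p of 0.3 (adjusted 0.375) and Foxa2 an exact p of 0.4 (adjusted 0.4). Summed over the 3 genes FOXA transcripts came to 58.5 ± 5.89 TPM in the mutants and 53.7 ± 3.54 TPM in the controls.

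**Figure D2:**
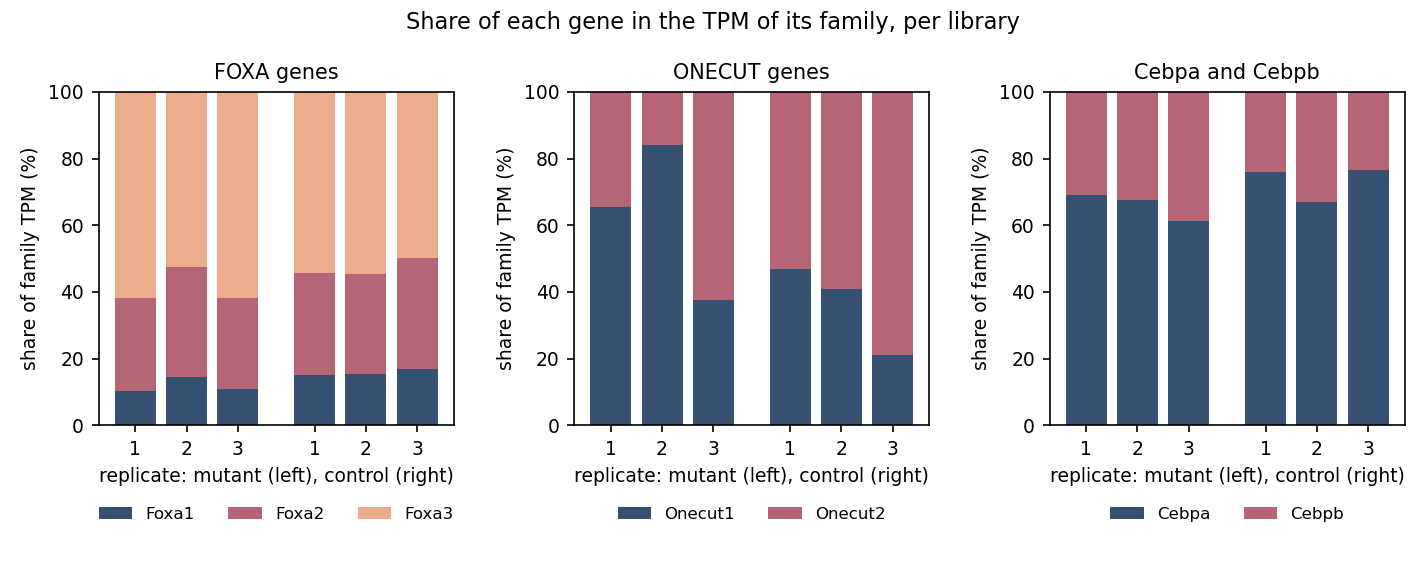
Share of each gene in the TPM of its family, per library, with mutant replicates on the left and control replicates on the right of each panel. Onecut1 takes 37.5% to 84.2% of the ONECUT pair in mutants and 21.03% to 46.9% in controls, whereas the FOXA and C/EBP shares vary much less.

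Neither ONECUT gene was called after TMM scaling. Onecut1, which encodes HNF6, on chromosome 9 (ENSMUSG00000043013.10, bases 74861921 to 74891781, plus strand), had 25.4, 83.8 and 8.42 CPM in mutant replicates 1 to 3 and 14.04, 12.04 and 4.57 CPM in control replicates 1 to 3. Mutant replicate 2 was the highest library, mutant replicate 3 lay below 2 of the controls, and control replicate 3 was the lowest. The highest mutant was 9.96 times the lowest, a spread reached within the mutants by 0.523% of the 12050 genes with a mean of at least 1 CPM. Within the controls the corresponding figure was 3.07 times, reached by 2.42% of these genes. The values rest on 2704, 969 and 261 estimated counts in mutant replicates 2, 1 and 3.

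The mean of Onecut1 was 39.2 ± 39.5 CPM in the mutants and 10.2 ± 4.99 CPM in the controls, and the log2 fold change was 1.94 ± 0.74, short of the threshold (edgeR adjusted p = 0.122, 95% interval 0.26 to 3.62). Mutant replicate 2 decided its size: without that library it was 0.72 (adjusted p = 0.451), and without mutant replicate 3 it was 2.42 and passed (adjusted p = 0.0355). It also passed with no filter on low counts (adjusted p = 0.00697). A long noncoding RNA annotated on the same strand, Gm20649, shares 2171 exon bases with Onecut1, and 41.5 estimated counts in control replicate 2 and 11.1 in mutant replicate 3 were assigned to it, with 0 in the other libraries.

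Onecut2, a paralog with an overlapping role in early liver and bile duct development, lies on chromosome 18 (ENSMUSG00000045991.19, bases 64340020 to 64400987, plus strand). It was the steadiest of the 8 factors among the mutants in TPM, with 4.19, 4.51 and 4.29 TPM in mutant replicates 1 to 3 and 7.20, 7.86 and 7.92 TPM in control replicates 1 to 3. All mutants were below all controls, on a scale where 69.9% of the 11567 genes with at least 1 TPM in 3 libraries did the same. After TMM scaling it had 67.9 ± 5.69 CPM in the mutants and 79.3 ± 3.73 CPM in the controls, and the log2 fold change was -0.22 ± 0.10, short of the threshold (edgeR adjusted p = 0.181, 95% interval -0.45 to 0.00). At library totals it was -0.62 and passed (adjusted p = 0.00331), where 31.6% of genes were called lower, and in the TPM fit it was -0.81 (limma adjusted p = 0.00295), where 61.3% were.

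Onecut1 made up 65.4%, 84.2% and 37.5% of the summed TPM of the pair in mutant replicates 1 to 3 and 46.9%, 41.0% and 21.03% in control replicates 1 to 3. The groups overlapped and the difference of 26.0 percentage points did not pass (two-sided exact permutation p = 0.3, adjusted over 5 shares 0.375).

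Of the C/EBP genes, Cebpa was the most abundant of the 8 factors in every library and Cebpb came after it. Cebpa, on chromosome 7 (ENSMUSG00000034957.10, bases 35119293 to 35121928, plus strand), had 496, 620 and 483 CPM in mutant replicates 1 to 3 and 484, 486 and 452 CPM in control replicates 1 to 3. Mutant replicate 2 stood above the other 5 libraries, and mutant replicate 3 lay within the controls. At 0.17 ± 0.11 the log2 fold change missed the threshold (edgeR adjusted p = 0.367, 95% interval -0.09 to 0.43). Without mutant replicate 2 it was 0.04.

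The direction of Cebpa depends on the scaling. Its TPM were 234, 268 and 223 in mutant replicates 1 to 3 and 331, 332 and 314 in control replicates 1 to 3, and the log2 fold change was -0.23 at library totals (edgeR adjusted p = 0.138) and -0.44 in the TPM fit (limma adjusted p = 0.0179). These values lie above the median gene of each scale, -0.40 and -0.55. An antisense transcript, Gm45091, shares 51 exon bases with Cebpa and had 20.9 to 35.8 estimated counts in the mutants and 5.94 to 43.1 in the controls, against at least 14971 for Cebpa.

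Cebpb, on chromosome 2 (ENSMUSG00000056501.3, bases 167688915 to 167690418, plus strand), had 101, 136 and 140 CPM in mutant replicates 1 to 3 and 70.1, 109 and 62.7 CPM in control replicates 1 to 3. Control replicate 2 lay above mutant replicate 1, so the groups overlapped. The means of 126 ± 21.6 CPM in the mutants and 80.7 ± 25.0 CPM in the controls were 0.64 ± 0.22 apart on the log2 scale, short of the threshold (edgeR adjusted p = 0.0888, 95% interval 0.15 to 1.13). Without control replicate 2 it was 0.92 and passed (adjusted p = 0.0242), and it passed with DESeq2 (adjusted p = 0.0158) and with no filter (adjusted p = 0.0125). In the TPM fit it was 0.07. Tmem189, which runs on the opposite strand and shares 312 exon bases with Cebpb, had a log2 fold change of 0.04 ± 0.10. No source used here says whether the libraries keep strand. Whether reads in the shared exon bases of such antisense pairs were told apart is therefore not known.

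Cebpa took 69.2%, 67.6% and 61.2% of the summed TPM of the C/EBP pair in mutant replicates 1 to 3 and 76.0%, 67.1% and 76.7% in control replicates 1 to 3. Mutant replicates 1 and 2 lay above control replicate 2, and the difference was -7.24 percentage points (two-sided exact permutation p = 0.3, adjusted over 5 shares 0.375). Here too the test could not give a p below 0.1.

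Prox1, on chromosome 1 (ENSMUSG00000010175.13, bases 190118035 to 190170714, minus strand), had 138, 80.8 and 147 CPM in mutant replicates 1 to 3 and 126, 130 and 131 CPM in control replicates 1 to 3. Mutant replicate 2 alone lay below the controls, and the other mutants lay above them. The controls differed by 1.04 times from lowest to highest, a range as narrow as or narrower than that of 97.2% of the 12050 genes, and the mutants by 1.82 times. The log2 fold change was -0.08 ± 0.20 (edgeR adjusted p = 0.834, 95% interval -0.53 to 0.37). It was 0.14 without mutant replicate 2. In TPM all mutants, at 19.6, 10.5 and 20.4, were below all controls, at 26.0, 26.8 and 27.5. On that scale 69.9% of genes did the same. The fit on log2(TPM + 0.1) gave -0.72 (limma adjusted p = 0.0519), where the median gene was at -0.55.

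The antisense gene Prox1os, which shares 133 exon bases with Prox1, rose to 9.19 ± 1.20 CPM in the mutants, against 4.12 ± 0.54 CPM in the controls (log2 fold change 1.16 ± 0.19, edgeR adjusted p = 0.00762). It had 7.82, 10.1 and 9.64 CPM in mutant replicates 1 to 3, so mutant replicate 2, the lowest for Prox1, was the highest for Prox1os. It was looked at because of this overlap, after its values were seen.

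**Figure D3:**
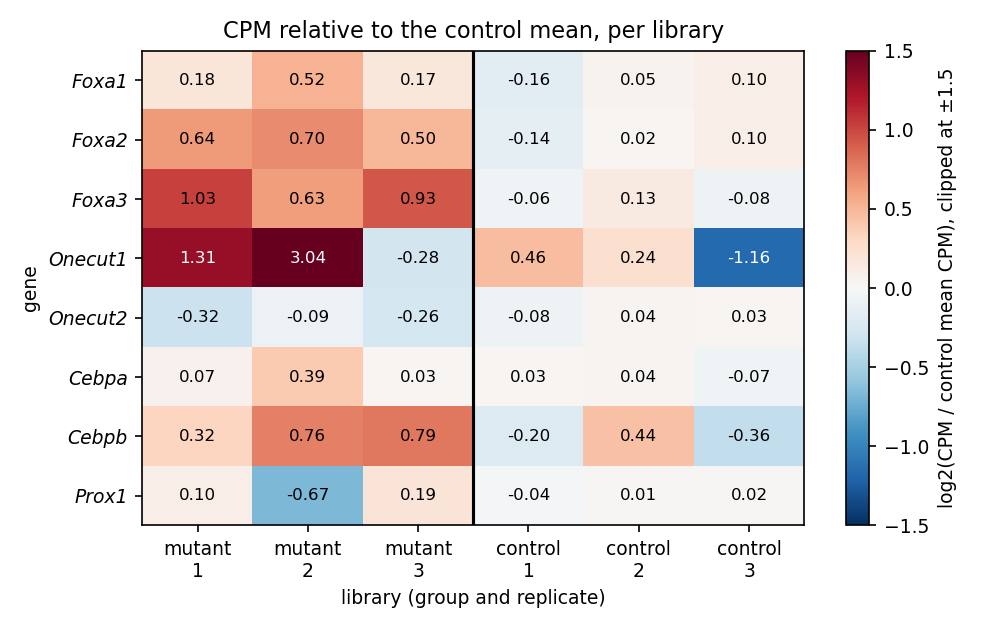
Log2 ratio of CPM (after TMM scaling) to the control mean for each factor and library, mutants left of the line and controls right of it. Mutant replicate 2 holds the highest Onecut1 (3.04) and the lowest Prox1 (-0.67), while Foxa2 and Foxa3 are above 0.4 in all 3 mutants.

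Mutant replicate 2 was thus the highest library for Foxa1, Foxa2, Onecut1 and Cebpa and the lowest for Prox1, on the CPM scale. Leaving it out kept the count of called factors at 2, with Foxa3 at 0.97 (edgeR adjusted p = 0.00329) and Foxa2 at 0.57 (adjusted p = 0.0383). Over all genes that fit called 690 higher and 661 lower.

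**Figure D4:**
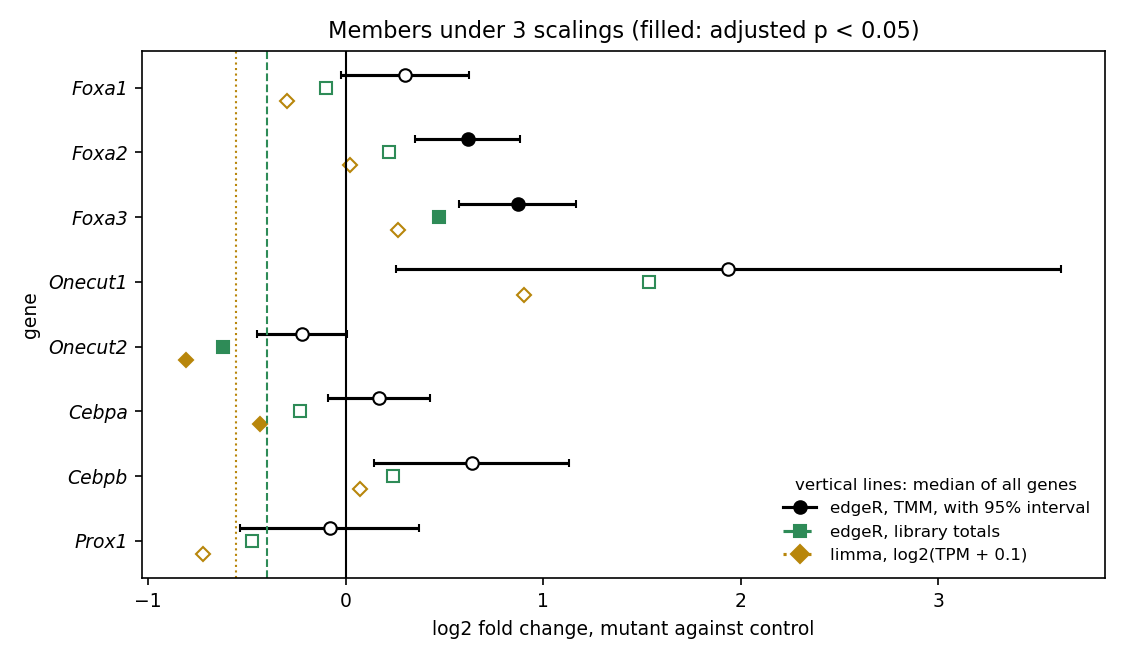
Log2 fold change, mutant against control, of each factor under edgeR with TMM (circles, 95% interval), edgeR at library totals (squares) and limma on log2(TPM + 0.1) (diamonds). Filled symbols passed an adjusted p of 0.05, and vertical lines give the median of all genes, at 0.00, -0.40 and -0.55.

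Set against the median gene of each scale, the median log2 fold change of the 8 factors was 0.46 with TMM, where that of all tested genes was 0.00, and 0.06 at library totals, where that of all tested genes was -0.40. At library totals 4 of the 8 factors had a positive log2 fold change, against 6 of 8 with TMM. With the major urinary protein genes left out of the totals, Foxa3 alone was called higher and Onecut2 alone lower, where 16.5% of genes were called (2.82% higher and 13.7% lower). On log2(TPM + 0.1) none of the 8 was called higher and Cebpa and Onecut2 were called lower, where 62.9% of genes were called (1.62% higher and 61.3% lower). On log2(TPM + 1) none was called higher, and Cebpa, Onecut2 and Prox1 were called lower, where 65.0% were called (1.72% higher and 63.3% lower). At plain library totals Foxa3 was called higher and Onecut2 lower, where 33.6% were called. With the library medians of log2(TPM + 0.1) set equal, a setting added after the data were seen, Foxa2 and Foxa3 were called higher and none lower, where 10.9% were called (5.32% higher and 5.58% lower).

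In CPM, groups did not overlap for 3 of the 8 factors in the mutant-higher direction, the FOXA genes, against 17.4% of tested genes. Such groups were also found for Onecut2 in the mutant-lower direction, where 17.5% of tested genes did the same. In TPM they were found for 0 of the 8 in the mutant-higher direction, against 1.88% of genes, and for Onecut2, Cebpa and Prox1, 3 of the 8, in the mutant-lower direction, against 69.9% of genes.

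Marker genes of other cell types that express some of these factors had lower summed TPM in the mutant libraries, except for the pancreatic list, whose groups overlapped. On this scale the hepatocyte sum and 69.9% of genes were lower in all mutants too. Bulk RNA cannot tell fewer cells of a type from less RNA per cell. Bile duct cells express Foxa1, Foxa2, Onecut1 and Onecut2. Their 9 markers summed to 30.2 to 43.5 TPM in the mutants and 87.9 to 125 TPM in the controls, with none at 0. Most of that sum was Spp1, at 18.8 to 30.1 TPM in the mutants and 72.4 to 107 TPM in the controls. Of 7 tested markers 1 fell (Spp1, log2 fold change -1.13 ± 0.22) and 1 rose (Sox9, 0.72 ± 0.20), and their median was 0.07. None rose on leaving out any library other than mutant replicate 2. Macrophages express Cebpa and Cebpb. Their 13 markers summed to 93.9 to 171 TPM in the mutants and 312 to 402 TPM in the controls, none at 0, and 6 of 13 fell, among them Ccr2 and Cd68. Only 1 fell without control replicate 1 or 2, 2 without mutant replicate 1 and 4 without mutant replicate 2 or control replicate 3, whereas 11 fell at library totals. Lymphatic endothelium is defined by Prox1. Its 7 listed markers summed to 10.2 to 13.8 TPM in the mutants and 28.2 to 40.7 TPM in the controls, none at 0, and 2 of 6 tested fell, Reln and Lyve1, which stand in the stellate and sinusoidal lists too. The count was 1 without control replicate 1 or 3 or any 1 mutant, and 3 without control replicate 2.

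Of the further marker lists, 6 of 10 stellate cell markers fell, with sums of 67.1 to 75.3 TPM in the mutants and 199 to 216 TPM in the controls, Col1a1 and Col3a1 among them. Of 8 sinusoidal markers 3 fell, with sums of 37.8 to 51.2 TPM in the mutants and 66.9 to 121 TPM in the controls. None of the 8 was called without mutant replicate 1 or 2 or control replicate 1 or 3, and 1 was without mutant replicate 3, whereas 8 fell at library totals. For adipocytes, which express Cebpa and Cebpb, 2 of 2 tested markers fell (Cfd and Fabp4), the 6 listed summed to 3.37 to 6.29 TPM in the mutants and 36.6 to 82.5 TPM in the controls, and Lep was at 0. Only 1 was called without mutant replicate 1 or 3 or control replicate 1 or 3. Neutrophil markers, known to accompany Cebpe, summed to 2.80 to 4.74 TPM in the mutants and 17.8 to 24.9 TPM in the controls, with 2 of 2 tested lower (S100a8 and S100a9). None was called without mutant replicate 1 or without any 1 control, and 1 was without mutant replicate 2 or 3. Pancreatic markers, looked at because the pancreas expresses Foxa2, Onecut1 and Prox1, summed to 25.4 to 33.6 TPM in the mutants and 31.2 to 37.0 TPM in the controls, with 4 of 7 at 0 (Cpa1, Ins1, Ins2 and Pnlip). Nearly all of that sum was Cela1, at 25.4 to 33.6 TPM in the mutants and 31.1 to 37.0 TPM in the controls. The part of these cells in the values of the 8 factors was not tested.

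Other transcription factors of the hepatocyte network were looked up beside the 8. Of 20 listed, 19 were tested, 4 rose and 0 fell (2 and 0 without mutant replicate 1), with a median log2 fold change of 0.19 (-0.21 at library totals, where 1 was called higher and 3 lower). Hnf4a, the nuclear receptor at the centre of the adult hepatocyte programme, rose to 766 ± 73.8 CPM in the mutants, against 481 ± 32.0 CPM in the controls (log2 fold change 0.67 ± 0.10, edgeR adjusted p = 0.00597). Klf15, a regulator of amino acid breakdown and gluconeogenesis, rose to 172 ± 36.4 CPM in the mutants, against 70.0 ± 4.82 CPM in the controls (adjusted p = 0.00193), and was also called at library totals. Creb3l3, a membrane-bound factor of the fasting response, rose by 0.50 ± 0.10 on the log2 scale and Sox9, the bile duct factor, by 0.72 ± 0.20. At library totals Hnf4a, at 0.27, Creb3l3, at 0.10, and Sox9, at 0.33, were not called. Nr5a2, a nuclear receptor of bile acid synthesis, did not pass (0.19, edgeR adjusted p = 0.328).

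Among 14 tested forkhead genes outside the FOXA group, 3 rose and 0 fell, with a median of -0.03. They were Foxo1 and Foxo3, which insulin signalling keeps out of the nucleus, and Foxq1. Foxo1 had 56.4 ± 15.3 CPM in the mutants and 32.3 ± 3.77 CPM in the controls (adjusted p = 0.0347), Foxo3 65.0 ± 12.8 CPM in the mutants and 38.1 ± 4.10 CPM in the controls (adjusted p = 0.0171), and Foxq1 20.9 ± 1.54 CPM in the mutants and 9.97 ± 3.68 CPM in the controls (adjusted p = 0.0305). The count fell to 0 without mutant replicate 1 or control replicate 2, to 1 without mutant replicate 3 or control replicate 3, and to 0 at library totals, where 7 were called lower. Foxf1, a factor of stellate and other mesenchymal cells, had 0.866 ± 0.205 CPM in the mutants and 2.17 ± 0.729 CPM in the controls and did not pass (adjusted p = 0.0606).

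Of 8 tested relatives and dimer partners of the C/EBP proteins, 0 rose and 2 fell. Atf3, a stress-induced factor, fell to 0.879 ± 0.176 CPM in the mutants, against 8.29 ± 5.94 CPM in the controls (log2 fold change -3.23 ± 0.51, adjusted p = 0.00628). Cebpe, known from the granulocyte lineage, fell to 4.27 ± 0.737 CPM in the mutants, against 8.39 ± 1.79 CPM in the controls (adjusted p = 0.0287). Cebpd, which is induced in the acute phase, had 8.59 ± 2.54 CPM in the mutants and 5.11 ± 0.244 CPM in the controls and did not pass (adjusted p = 0.0779), nor did Atf4, the main factor of the integrated stress response (log2 fold change -0.20 ± 0.09, adjusted p = 0.209). Only 1 fell without mutant replicate 1, mutant replicate 2, control replicate 1 or control replicate 2, and without mutant replicate 1 another was called higher. Of 4 tested cut homeobox genes besides the ONECUT pair none passed. Cux1, the most abundant, had 28.9 ± 1.34 CPM in the mutants and 27.4 ± 3.04 CPM in the controls. Cux2, a female-biased factor of mouse liver, had 0.643 ± 0.840 CPM in the mutants and 0.46 ± 0.147 CPM in the controls, and Satb1 averaged 0.917 CPM in the mutants and 0.72 CPM in the controls. Onecut3 was at 0 in every library.

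Genes known as targets of the 8 factors were described by list. Of 12 FOXA targets 2 rose and 0 fell, with a median log2 fold change of 0.18 (2 higher and 3 lower at library totals, with a median of -0.22). The 2 were Pck1, the rate-limiting enzyme of gluconeogenesis, at 3441 ± 1007 CPM in the mutants and 937 ± 135 CPM in the controls (adjusted p = 0.00171), and Tat, tyrosine aminotransferase, at 1314 ± 633 CPM in the mutants and 374 ± 47.2 CPM in the controls (adjusted p = 0.0136). Without control replicate 3 only 1 of the 12 was called. The fetal gene Afp (-1.14 ± 0.37, adjusted p = 0.0775) did not pass.

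Of 12 targets of C/EBPα 7 rose and 0 fell, with a median of 0.76, and at library totals 5 were called higher and 1 lower, with a median of 0.36. After TMM scaling 5 rose without mutant replicate 2 or any 1 control, and 6 without mutant replicate 1 or 3. The 4 with the smallest p were Cps1 and Arg1, enzymes of the urea cycle, Pck1, and Hamp, which encodes the iron hormone hepcidin. Cps1 had 4803 ± 1483 CPM in the mutants and 1069 ± 25.9 CPM in the controls (adjusted p = 0.000951), Arg1 1529 ± 261 CPM in the mutants and 636 ± 39.2 CPM in the controls (adjusted p = 0.00118), and Hamp 427 ± 211 CPM in the mutants and 51.2 ± 23.5 CPM in the controls (adjusted p = 0.00493). Pck1 and Tat stand in the FOXA list as well, and Cebpa itself did not pass. The FOXA, C/EBPα and HNF6 lists share further genes, so their medians are not independent.

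Of 12 acute phase genes known to be induced through C/EBPβ, 0 rose and 3 fell, with a median of -0.36 (10 lower at library totals, with a median of -0.76). Lcn2, which encodes the iron-siderophore carrier lipocalin 2, fell to 12.1 ± 3.801 CPM in the mutants, against 62.6 ± 26.3 CPM in the controls (adjusted p = 0.0042). Orm2, an orosomucoid, fell to 5.42 ± 1.44 CPM in the mutants, against 27.7 ± 12.7 CPM in the controls (adjusted p = 0.00456). It has near-identical paralogs, Orm1 and Orm3, between which the authors' counting could split reads, and is therefore uncertain. Il1rn, the interleukin receptor antagonist gene, fell to 4.33 ± 1.12 CPM in the mutants, against 13.1 ± 3.99 CPM in the controls (adjusted p = 0.00924). Cebpb itself, at a log2 fold change of 0.64, was not called.

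Of 8 genes known as HNF6 targets 1 rose and 0 fell, with a median of 0.08 (1 higher and 2 lower at library totals, with a median of -0.31). Pfkfb1, the liver form of the bifunctional enzyme that sets fructose bisphosphate levels, rose to 38.0 ± 2.73 CPM in the mutants, against 19.0 ± 0.446 CPM in the controls (log2 fold change 1.00 ± 0.10, adjusted p = 0.00103). The microsomal transfer protein gene Mttp (0.17 ± 0.09) and the glucose phosphatase gene G6pc (0.23 ± 0.15) did not pass.

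**Figure D5:**
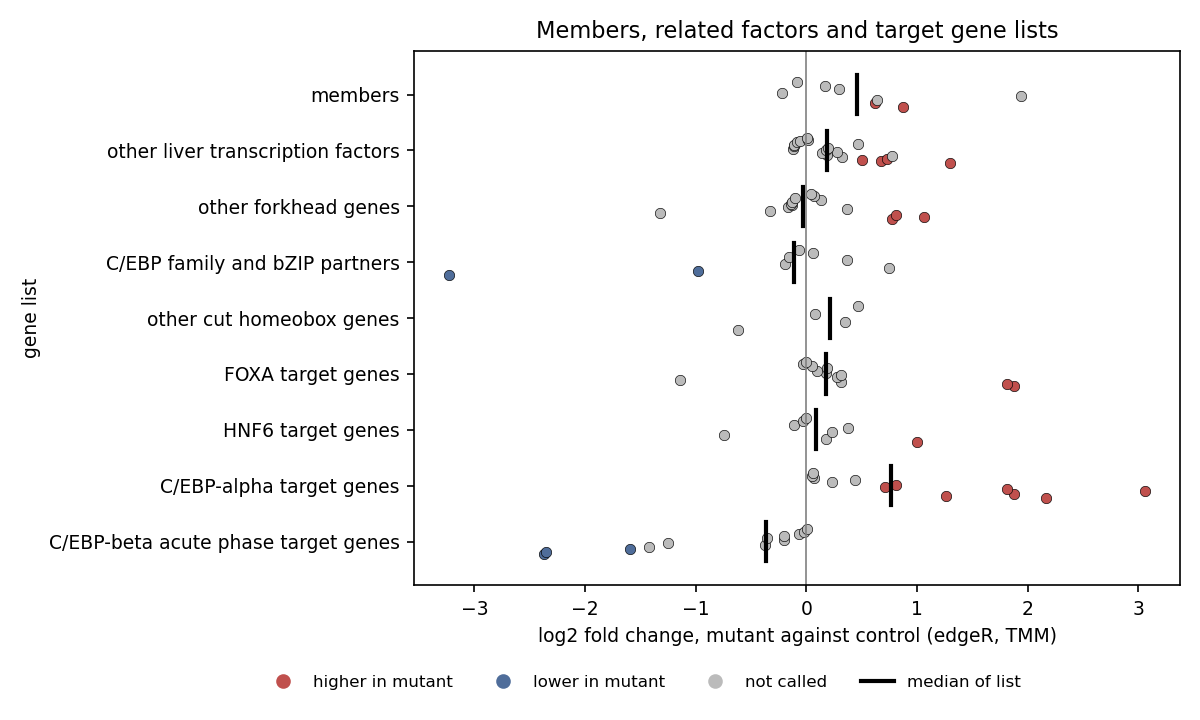
Log2 fold change, mutant against control (edgeR, TMM), of the 8 factors and of each tested gene in the related lists, with called genes in red (higher) and blue (lower) and the list median as a black bar. The C/EBPα target list has its median at 0.76 and the acute phase list at -0.36.

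The genes whose pattern was most like each factor were taken by Pearson's r of log2 CPM over the 6 libraries among 7191 genes. Foxa3 was closest to Nnmt, nicotinamide N-methyltransferase (r = 0.9998), with 180, 77.0 and 154 CPM in mutant replicates 1 to 3 and 18.4, 27.4 and 17.3 CPM in control replicates 1 to 3, a log2 fold change of 2.70. Mtfr1l and Inpp4a came next for Foxa3, both with r = 0.996. Foxa2 was closest to Psmd12, a proteasome subunit, Mrps17, a mitochondrial ribosomal protein, and Acad8, an enzyme of valine breakdown (r = 0.9986, 0.9984 and 0.9978). Foxa1 was closest to Atp5pb, Gfer and Erp44 (r = 0.99 each).

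Onecut1 was closest to Bckdk, the kinase of branched-chain keto acid dehydrogenase, Anapc11 and Commd2 (r = 0.99, 0.99 and 0.98), whose range was much smaller, with Bckdk at 12.9 to 17.0 CPM in the mutants and 12.2 to 13.8 CPM in the controls. Onecut2 was closest to Bcl10, Tmed3 and the glutathione transferase gene Gsta4 (r = 0.99, 0.98 and 0.98). Cebpa was closest to Hspb6, the histone methyltransferase gene Ezh1 and Polr1d (r = 0.99, 0.99 and 0.99), and Cebpb to Ambp, Ppp4c and the splicing factor gene U2af2 (r = 0.99, 0.99 and 0.98). Prox1 was closest to the kinase gene Braf (r = 0.99), with 20.4, 14.2 and 21.1 CPM in mutant replicates 1 to 3 and 18.9, 18.8 and 19.2 CPM in control replicates 1 to 3, then Prrc2c and Zkscan1 (r = 0.99 and 0.98). These values are over 6 libraries with the best of 7191 genes taken, and describe a pattern only.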

How the data were processed

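Total RNA from liver was DNase-treated, poly(A)-enriched and sequenced as paired reads of 150 bases, per the labels' protocols. The submitters' processing notes name cutadapt, STAR and mm10. No source used here names the quantifier, annotation, versions or strandedness. Estimated counts and TPM were deposited. No nonzero deposited estimated count was whole within 1e-06, and among the 10983 genes that exceeded 0.5 TPM throughout, count over TPM followed 1 factor per gene and 1 per library within 5.72e-10, so the counts are rescaled TPM rather than reads, and the variances, standard errors and p-values of the count models are approximate. Columns were matched to libraries by title, with 0 left over. Whether the libraries are separate animals is not stated, and p-values cover only their spread, which may be technical. Library pairs differed by a chi-square of at least 47.4 per gene.

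Estimated counts were rounded and tested with edgeR 4.0.16 (filterByExpr, TMM, quasi-likelihood F-test, R 4.3.3) on group alone, with Benjamini-Hochberg adjustment over 14286 genes and a call at an adjusted p under 0.05. Standard errors come from the F statistic, and intervals from its t distribution at 95%. Alternatives used DESeq2 1.42.0 and limma 3.58.1 on log2(TPM + 1) or log2(TPM + 0.1), where a fold change of a low gene is understated. The fit was tested on simulated data, drawn as counts rather than rescaled TPM. They held far fewer changed genes than were called here and did not model the major urinary protein difference. The rates may therefore not carry over to these data. The fit recovered 48.24% of 85 genes given a log2 change of 1 in either direction and 81.65% of 109 given 2. Of its 143 calls 13 were false. A gene that is not called may thus still have changed. The 8 factors, the 17 lists, the tests and the naming rule were chosen with earlier results of these data known. Named are the 8 factors, up to 4 genes with the smallest p per list (2 per marker list), the 3 genes most like each factor (mean of at least 10 CPM, no predicted symbol) and Rxra. Genes named outside this are Prox1os, Gm20649, Gm45091 and Tmem189, which overlap a factor, and Nr5a2, Orm1 and genes at 0. Some genes that the rule names are not reported here. Positions are from GENCODE M21 on the same assembly, in which 99.38% of gene identifiers were found. Promoter windows are from RefSeq, GRCm38.p6, for 7 factors. Onecut2 was not searched, as windows on chromosome 18 were not used for the factors.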

Additional observations from a re-analysis of the deposited data

How the results depend on the processing

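Scaling decided most of what changed. At library totals 4801 genes were called (293 higher, 4508 lower), with the Mup genes, which encode major urinary proteins, taken out of the totals 405 were called higher and 1968 lower, and limma on TPM called 7521 (199 and 7322) with a pseudocount of 1, 7272 (187 and 7085) with 0.1 and 7159 (184 and 6975) without a filter. With library medians set equal on log2(TPM + 0.1), a setting chosen after seeing the data, it called 1261 (615 and 646), and of the 8 factors again 2 higher, Foxa3 at 0.86 and Foxa2 at 0.62. Of the 8 factors 1 was called higher and 1 lower at either kind of library totals. With no filter 4 were called higher, where 1082 genes were called higher and 1240 lower. In the 3 limma fits on TPM 0 of the 8 were called higher and 3, 2 and 2 lower.

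Foxa2 was not called at library totals (0.22), without the Mup genes (0.41) or in the limma fits on TPM (0.0215, 0.0227 and 0.0215), and Foxa3 not in the latter fits (0.26 or 0.27). Onecut2 was called in these 5 settings (-0.62, -0.43, -0.70, -0.81 and -0.70). Foxa1 turned negative at library totals (-0.10) and on TPM (-0.27, -0.30 and -0.27). Cebpa turned negative at both library totals (-0.23 and -0.0382) and on TPM (-0.43, -0.44 and -0.43). Prox1 was called on log2(TPM + 1) (-0.69) and was 0.14 without mutant replicate 2. Onecut1 (1.94) and Cebpb (0.64) were called with no filter, and Cebpb with DESeq2 (0.64).

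Leaving out 1 library gave 882 to 1514 calls (426 to 758 higher, 430 to 756 lower), with the fewest, 882, without mutant replicate 1 and 886, 956 and 1018 on omitting control replicates 1, 2 and 3, and called 1 to 3 of the 8 factors. The log2 fold changes ranged from 0.17 to 0.36 for Foxa1, 0.56 to 0.68 for Foxa2, 0.78 to 0.97 for Foxa3, 0.72 to 2.42 for Onecut1, -0.30 to -0.18 for Onecut2, 0.04 to 0.24 for Cebpa, 0.49 to 0.92 for Cebpb and -0.24 to 0.14 for Prox1. Same-numbered libraries deviated together little (r = 0.0167, -0.00322 and 0.0634). With deviations taken within groups of 3 libraries, this cannot exclude a pairing by the titles' replicate numbers. With the replicate block 1558 genes were called, and Foxa3 (0.86, adjusted p = 0.0162) and Foxa2 (0.62, 0.0292) were still called. The family shares kept their direction in all 7 settings each, which cannot pass a test at this size. The causes of these shifts were not tested beyond the scaling itself.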
